A study of Mus musculus with 14 samples.

Results

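Transcripts of glucose breakdown and of the response to low oxygen were followed in tumours of control mice and of mice deficient in HIF-2α, a transcription factor that accumulates in low oxygen and is the product of Epas1. The set was a list of 38 genes, chosen with earlier results of these data known. It held the glucose transporter Slc2a1, the enzymes of glycolysis, lactate and pyruvate handling, and genes known to be switched on in hypoxia. Of these, 33 had a probeset of their own on the array (a probeset is a group of short probes against one transcript, and here one whose annotation gives a single gene symbol), out of 12393 genes so measured. Where a gene had several probesets, the brightest on average was taken. Gpi1, Gapdh, Eno1, Bnip3l and Ankrd37 had no such probeset outside the Affymetrix controls and are not analysed here. Of the 33, 28 were above log2 4 in at least 7 of the 14 arrays and were tested, and 5 (Slc16a3, Plod2, Adm, Car9 and Car12) were too dim for a test and are given as levels.

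Each group held 7 arrays, and the design text counts 7 mice in each. The labels give the genotype of the first group as control and of the second as Hif2alpha deficient, with "Hif 2alpha Knockdown" in the titles, and put all 14 mice on a mixed 129 SvJ/C57Bl6 background. They name no tumour-driving allele, no Cre, no treatment, no age and no organ. What is known of the study places the tumours in the lung, and the alveolar surfactant gene Sftpc read 13.85 in controls and 13.89 in deficient tumours (group means, log2). All levels are the authors' log2 values, in which 1 unit is a doubling, differences are deficient minus control, and arrays are called by group and replicate number. The labels do not say how tumours were taken from the mice, so p-values measure the spread between these arrays.

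As background, cells take up glucose through GLUT1 (Slc2a1) and break it down to pyruvate, which lactate dehydrogenase reduces to lactate when mitochondria do not take it up. In low oxygen the HIF proteins, HIF-1α or HIF-2α paired with ARNT, bind the core motif ACGTG or GCGTG and raise transcription of many genes. In many cell types the glycolytic enzymes are known chiefly as targets of HIF-1α. Other genes of the set act in mitochondrial turnover (Bnip3), pH control (Car9, Car12), collagen modification (P4ha1, P4ha2, Plod1, Plod2, Lox) and disulfide formation (Ero1a).

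The promoter windows below, from 250 bases before to 50 after the annotated start (RefSeq, GRCm38.p6), are shown for 5 genes: Ero1a, Pdk1 and Pgk1, which had unadjusted p-values under 0.05, and the isozyme pair Ldha and Ldhb, of which deficient 3 held the highest Ldha and the lowest Ldhb value. Capitals mark ACGTG or GCGTG, or their reverse complements CACGT and CACGC, so that CACGTG is an overlap of ACGTG on both strands.
Ero1a, chr14:45318523-45318822, minus strand: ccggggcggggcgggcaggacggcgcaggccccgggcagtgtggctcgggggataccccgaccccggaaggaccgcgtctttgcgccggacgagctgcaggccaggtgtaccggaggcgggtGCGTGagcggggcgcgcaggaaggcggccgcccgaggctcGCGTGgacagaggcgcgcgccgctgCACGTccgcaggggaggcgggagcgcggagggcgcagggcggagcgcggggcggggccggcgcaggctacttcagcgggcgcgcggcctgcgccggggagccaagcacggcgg
Pdk1, chr2:71872974-71873273, plus strand: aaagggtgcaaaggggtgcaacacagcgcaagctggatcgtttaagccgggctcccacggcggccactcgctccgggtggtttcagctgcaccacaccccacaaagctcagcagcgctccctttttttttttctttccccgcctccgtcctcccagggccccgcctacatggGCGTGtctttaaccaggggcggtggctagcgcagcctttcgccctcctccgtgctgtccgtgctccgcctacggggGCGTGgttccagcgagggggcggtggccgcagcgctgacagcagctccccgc
Pgk1, chrX:106186850-106187149, plus strand: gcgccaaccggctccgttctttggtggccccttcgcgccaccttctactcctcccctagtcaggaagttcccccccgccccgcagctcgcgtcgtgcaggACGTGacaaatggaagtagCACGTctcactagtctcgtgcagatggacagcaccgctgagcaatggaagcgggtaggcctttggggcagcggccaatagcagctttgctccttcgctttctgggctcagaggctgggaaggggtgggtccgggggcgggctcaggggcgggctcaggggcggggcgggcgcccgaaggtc
Ldha, chr7:46845554-46845853, plus strand: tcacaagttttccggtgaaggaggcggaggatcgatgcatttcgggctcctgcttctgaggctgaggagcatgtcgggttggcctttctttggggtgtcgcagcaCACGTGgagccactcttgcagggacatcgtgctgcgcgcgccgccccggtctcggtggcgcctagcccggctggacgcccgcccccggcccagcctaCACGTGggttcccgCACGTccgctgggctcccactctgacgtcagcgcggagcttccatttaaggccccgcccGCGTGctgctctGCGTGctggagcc
Ldhb, chr6:142507908-142508207, minus strand: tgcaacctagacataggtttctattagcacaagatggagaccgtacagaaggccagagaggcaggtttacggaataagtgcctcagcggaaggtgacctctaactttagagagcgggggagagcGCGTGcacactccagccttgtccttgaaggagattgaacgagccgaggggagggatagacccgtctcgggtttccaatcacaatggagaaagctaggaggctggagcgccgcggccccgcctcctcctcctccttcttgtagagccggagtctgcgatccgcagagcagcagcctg
Pdk1 and Ldha each have 2 annotated windows, of which the first along the chromosome is shown. The Ldha window shown held 5 matches to ACGTG and 2 to GCGTG, and the Ldhb window held 0 and 1. The second Ldha window held 0 and 2, and the second Pdk1 window held 0 and 0. Slc2a1 and Lox also had an unadjusted p under 0.05 in limma. The Slc2a1 window, not shown, held 1 and 1, and Lox was not in the promoter table. Of the 38 genes 34 were in the promoter table, with 47 windows. ACGTG was in 55.3% of these and in 19.6% of all 32851 windows, and GCGTG in 61.7% and 32.4%. At least 1 of the motifs was in 80.9% against 43.8%. The windows of the set were also richer in G and C, at a median of 64.3% against 52.7%, and the part of this in the motif shares was not tested. A match is a run of letters and not a shown binding site.

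Arrays differed in ways that bear on these genes. The median correlation of an array with the others of its group, over the 12701 tested probesets, spanned 0.941 to 0.970 among controls and 0.905 to 0.954 among deficient tumours, where deficient 1 (0.905) and deficient 3 (0.917) were lowest. Deficient 3 and deficient 6 stood apart in markers of other cell types, as given further down. Their description numbers share a leading number, as do those of deficient 1 and 5, those of deficient 4 and 7, and those of several controls. The leading numbers took 2 values among the controls and 4 among the deficient arrays, with 0 shared between the groups. What they mark is not stated, and if it is a shared animal or batch, the arrays of a group are fewer independent samples than 7, and that factor and genotype cannot be told apart. The mean of 6 muscle genes was 6.42 in deficient 7, where the heart myosin gene Myh6 read 10.76, against 2.28 to 2.96 in controls. The 3′ minus 5′ signal of the control transcripts, a measure of RNA integrity, averaged 2.87 in controls and 2.80 in deficient tumours (exact permutation p = 0.692, two-sided). The difference of each gene of the set is also given without deficient 3, and without deficient 3 and 6, where either moves it by more than 1.5 times or turns its sign.

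No gene of the set passed the threshold between deficient and control tumours. An adjusted p under 0.05 (limma, Benjamini-Hochberg over all probesets tested) was reached by 0 of 28, where 5 of 12701 probesets, 0.0394%, reached it. At an unadjusted p under 0.05 there were 5 of 28, against 14.7% of all probesets, a share of 17.9% in the set. All 5 (Ero1a, Pdk1, Slc2a1, Lox and Pgk1) were higher in deficient tumours, where 8.09% of all probesets met the same rule in that direction, and 0 were lower, against 6.57%. The means leaned upward: 21 of 28 genes had a difference above 0, against 52.6% of probesets, and the median difference was 0.30 against 0.02. Because the set was chosen with earlier results of these data known, such shares describe it and are no test of it. The lean was smaller without deficient 3 and deficient 6. Without deficient 3 the median was 0.18 with 19 genes above 0, against 51.3% of probesets, and without both it was 0.08 with 16 above 0, against 50.8%. At an unadjusted p under 0.05 there were then 3 genes higher (8.12% of probesets) and 0 lower (5.96%) without deficient 3. Without deficient 3 and 6 there were 2 higher (7.82%) and 1 lower (5.89%). With the leading description number as a random block (correlation within a number 0.349), limma called 0 probesets. In that fit 3 of 28 genes had an unadjusted p under 0.05, against 4.72%, all higher in deficient tumours, against 2.50%. Without deficient 1 the median was 0.41. With arrays weighted by how well they fit their group, limma called 7 of 28 genes (25.0%) where it called 15.0% of all probesets. Of these, Slc2a1, Tpi1, Pgk1, Slc16a1, Ero1a and Lox were higher in deficient tumours, 21.4% of the set against 7.81% of probesets, and Plod1 was lower (-1.09). The smallest weights were 0.277 for deficient 1, 0.410 for control 4 and 0.447 for deficient 3. In 0 of 28 genes did the groups not overlap, against 0.323% of probesets apart with deficient higher and 0.173% with deficient lower.

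**Figure D1:**
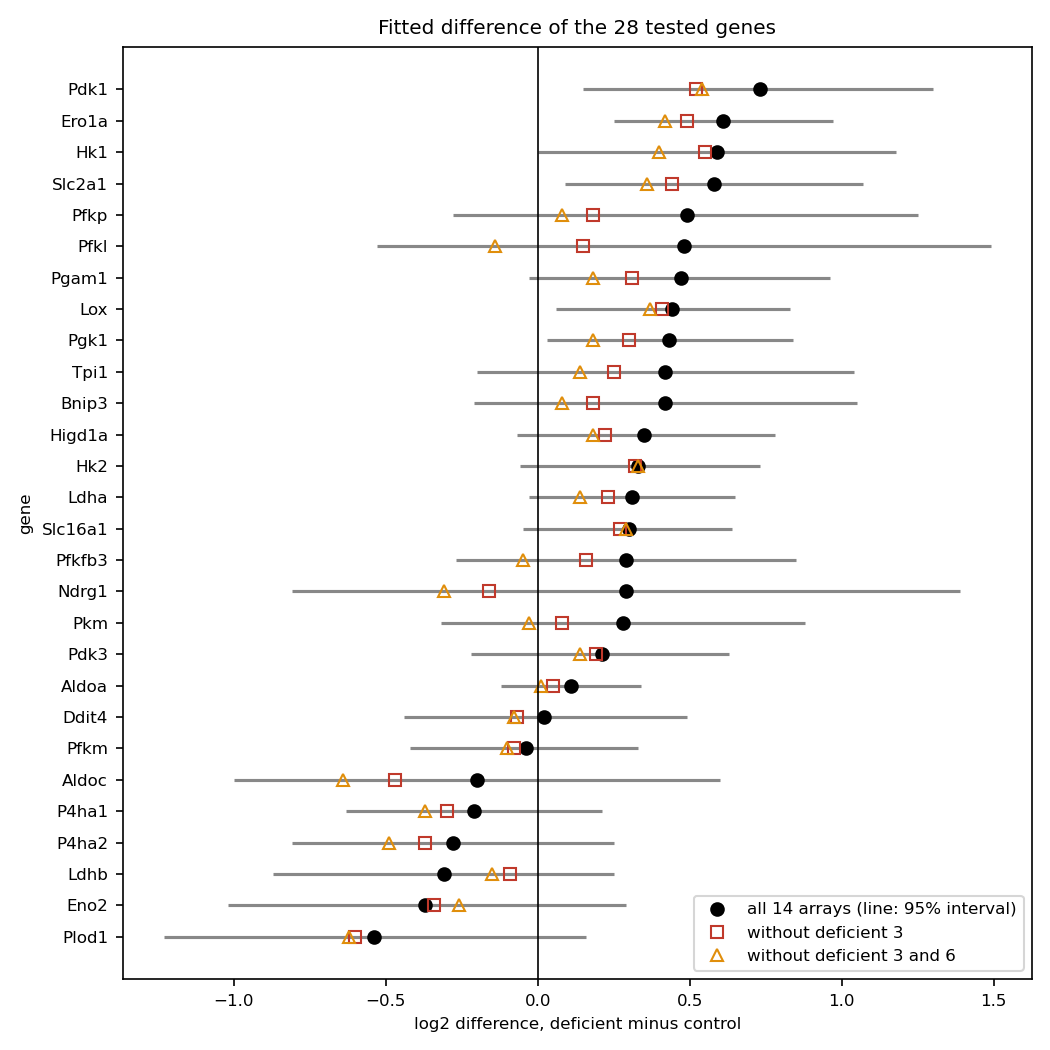
Fitted log2 difference, deficient minus control, for the 28 tested genes on the x axis, sorted from Plod1 (-0.54) to Pdk1 (0.73). Circles use all 14 arrays with a 95% interval, squares leave out deficient 3 and triangles leave out deficient 3 and 6, and Pfkp, for example, moves from 0.49 to 0.18 and 0.08.

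The way into glycolysis was read first. Slc2a1, the main glucose transporter of many tumours, lay at 10.44 to 11.78 in controls, with a median of 11.26, and at 11.21 to 12.65 in deficient tumours, with a median of 11.69. Deficient 3, deficient 6 and deficient 2 lay above every control, and the other 4 lay within the control range. The difference was 0.58 (SE 0.23, 1.50-fold, limma adjusted p = 0.270), or 0.44 without deficient 3 and 0.36 without deficient 3 and 6, and the 2 other Slc2a1 probesets differed by 0.58 and 0.73. Hexokinases trap glucose in the cell as glucose 6-phosphate. Hk1, the broadly expressed form, lay at 6.56 to 8.19 in controls, with a median of 7.75, and at 7.21 to 8.95 in deficient tumours, with a median of 8.28, with 5 deficient arrays above every control and deficient 7 below the control mean. Its difference was 0.59 (SE 0.28, adjusted p = 0.344) and 0.55 without deficient 3. Hk2, the inducible form, lay at 9.10 to 10.20 in controls, with a median of 9.95, and at 9.66 to 10.60 in deficient tumours, with a median of 10.08, a difference of 0.33 (SE 0.19, adjusted p = 0.422) that stayed at 0.32 without deficient 3.

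Phosphofructokinase, the committed step, has a liver, a muscle and a platelet form. Control values of Pfkl spanned 7.53 to 8.75, and those of deficient tumours 6.67 to 10.39. Its deficient arrays spread to both sides, with deficient 2, 3 and 6 above every control and deficient 1 and 5 below every control, so that the mean difference of 0.48 carried an SE of 0.47 and became 0.15 without deficient 3 and -0.14 without deficient 3 and 6. Pfkp reached 11.07 in deficient 3 while the other deficient arrays lay between 8.23 and 9.36, and the difference moved from 0.49 (SE 0.36) to 0.18 without that array and 0.08 without deficient 3 and 6. Pfkm differed by -0.04 (SE 0.18), or -0.08 without deficient 3 and -0.10 without deficient 3 and 6, with deficient 3 at 6.26 inside its control range of 5.67 to 6.69, and the sign turned with quantile normalisation (0.01) and with array weights (0.20). Pfkfb3, which makes the activator fructose 2,6-bisphosphate, read 8.33 in deficient 6 and 8.12 in deficient 3 against a control range of 6.74 to 7.64, and its difference of 0.29 (SE 0.26) became 0.16 without deficient 3 and -0.05 without both arrays.

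Among the lower steps of the pathway, Pgk1, the first ATP-producing step, lay at 11.20 to 11.76 in controls, with a median of 11.61, and at 11.41 to 12.80 in deficient tumours, with a median of 11.94. Deficient 2, 3, 4 and 6 lay above every control, and deficient 1 lay below the control mean. The difference was 0.43 (SE 0.19, 1.35-fold, limma adjusted p = 0.316), 0.30 without deficient 3 and 0.18 without deficient 3 and 6. The dimmer Pgk1 probesets differed by 0.56 and 0.79 (limma adjusted p = 0.218 and 0.180), or 0.44 and 0.62 without deficient 3. Pgam1, which moves the phosphate of phosphoglycerate, lay at 9.61 to 10.57 in controls, with a median of 10.02, and at 10.02 to 11.53 in deficient tumours, with a median of 10.54, with deficient 2, 3 and 6 above every control. It differed by 0.47 (SE 0.23, adjusted p = 0.372), or 0.31 without deficient 3 and 0.18 without deficient 3 and 6.

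Triose phosphate isomerase (Tpi1) spread widely among deficient tumours, from 9.72 in deficient 1 to 11.94 in deficient 3 (control range 10.01 to 10.98), for a difference of 0.42 (SE 0.29) that was 0.25 without deficient 3 and 0.14 without deficient 3 and 6. Pyruvate kinase (Pkm) did likewise, from 9.79 in deficient 1 to 12.07 in deficient 3, with a difference of 0.28 (SE 0.28) that was 0.08 without deficient 3 and -0.03 without deficient 3 and 6. Aldoa, a bright probeset, differed by 0.11 (SE 0.11), or 0.05 without deficient 3 and 0.01 without deficient 3 and 6, and its range of 12.80 to 13.40 in deficient tumours overlapped the 12.74 to 13.10 of controls. Aldoc, the aldolase form known from brain, differed by -0.20 (SE 0.37) with 1 deficient array, deficient 3 at 8.68, above every control, and without that array it differed by -0.47 (SE 0.30, adjusted p = 0.518), and by -0.64 without deficient 3 and 6. Eno2, the neuronal enolase, differed by -0.37 (SE 0.31), with deficient 3 at 4.59 inside the control range of 3.79 to 6.07. Of the 12 tested glycolytic enzymes 9 had a higher and 3 a lower mean in deficient tumours, 0 passed the test, and their median difference was 0.38, or 0.16 without deficient 3 and 0.05 without deficient 3 and 6.

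At the exit of glycolysis stand the lactate dehydrogenases. Ldha, whose product favours making lactate from pyruvate, lay at 12.18 to 12.75 in controls, with a median of 12.66, and at 12.52 to 13.42 in deficient tumours, with a median of 12.88. Deficient 2, 3, 4 and 6 lay above every control and the other 3 below the control mean, so the deficient arrays fell into a higher and a lower set. The difference was 0.31 (SE 0.16, limma adjusted p = 0.384), or 0.23 without deficient 3 and 0.14 without deficient 3 and 6. Ldhb, whose product favours the reverse reaction, was lowest in deficient 3 at 10.18, where the other deficient arrays lay between 11.26 and 12.03 and controls between 11.18 and 12.06. Its difference of -0.31 (SE 0.26) was -0.09 without deficient 3 and -0.15 without deficient 3 and 6. Its 3 other tested probesets differed by -0.46 to -0.51, and by -0.21 to -0.26 without deficient 3. Deficient 3 was thus the highest of the 14 arrays for Ldha and the lowest for Ldhb, while deficient 6 was high for Ldha (13.29) and at the upper end for Ldhb (12.03).

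The kinases that close the mitochondrial route for pyruvate were Pdk1 and Pdk3. Pdk1, which inactivates pyruvate dehydrogenase, lay at 7.08 to 8.49 in controls, with a median of 8.29, and at 8.36 to 10.08 in deficient tumours, with a median of 8.67, with 6 of 7 deficient arrays above every control. Its difference of 0.73 (SE 0.27, 1.66-fold, exact permutation p = 0.00350 before adjustment) had a limma adjusted p of 0.240, and it was 0.52 without deficient 3 and 0.54 without deficient 3 and 6. With the leading description number as a random block in limma, the Pdk1 difference was 0.83 and the adjusted p was 0.989. A second Pdk1 probeset, dimmer, differed by 1.08 (SE 0.26, adjusted p = 0.131), and by 0.94 without deficient 3. Pdk3 differed by 0.21 (SE 0.20). For lactate export, the monocarboxylate transporter Slc16a1 (MCT1) lay at 9.43 to 10.04 in controls, with a median of 9.63, and at 9.29 to 10.36 in deficient tumours, with a median of 10.18, with 4 deficient arrays above every control and deficient 1 below every control. Its difference was 0.30 (SE 0.16, adjusted p = 0.415). Slc16a3 (MCT4), the transporter of highly glycolytic cells, was dim in most arrays, at 3.05 to 5.04 in controls, but read 7.58 in deficient 3 and 5.14 in deficient 6, with the other deficient arrays between 3.18 and 3.57.

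**Figure D2:**
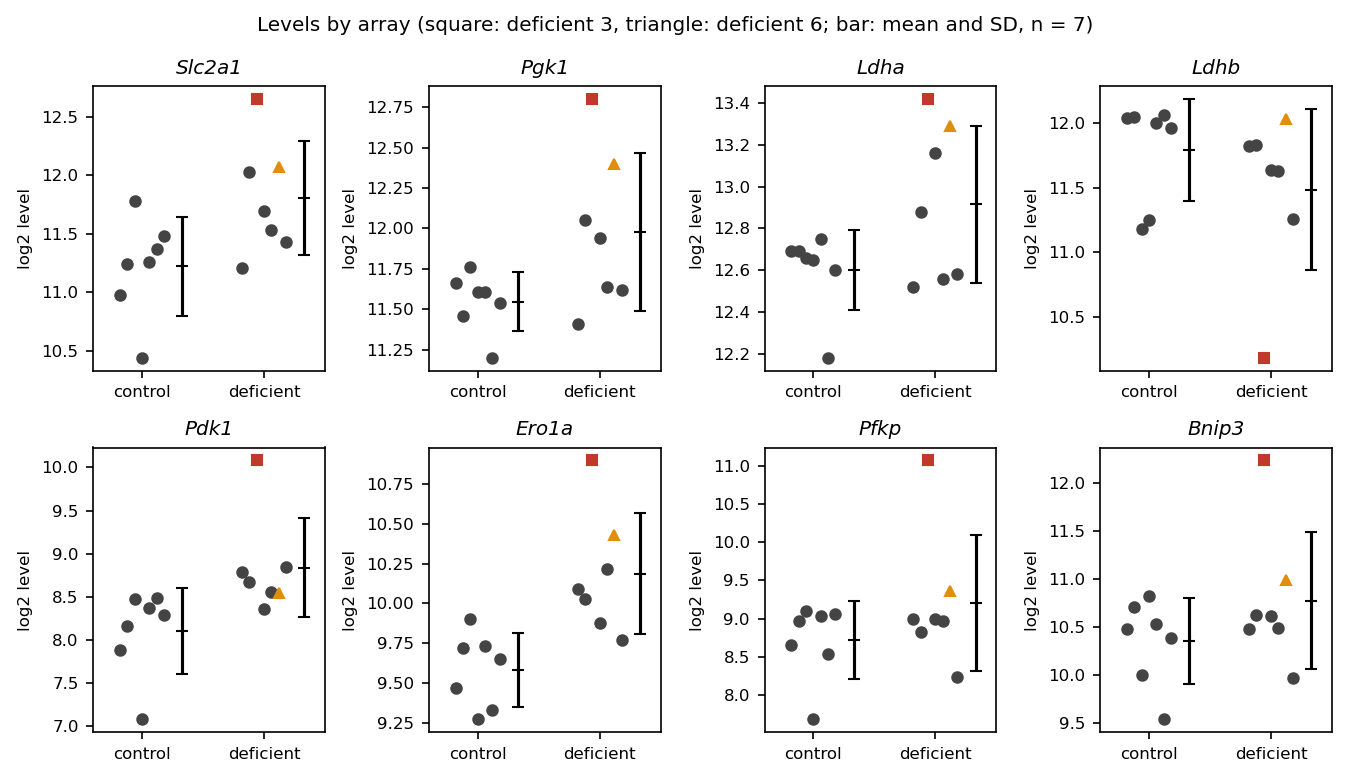
Log2 level (y axis, its range set per gene) of 8 genes in each of the 7 control and 7 deficient arrays, with the mean and SD of each group beside the points. The red square is deficient 3, the highest array for Slc2a1, Pgk1, Ldha, Pdk1, Ero1a, Pfkp and Bnip3 and the lowest for Ldhb, and the orange triangle is deficient 6. Every gene drawn thus has deficient 3 at an extreme, whereas it was the highest array for 17 of all 28 tested genes.

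Among the stress genes induced by low oxygen, Bnip3, a mitophagy receptor, read 12.23 in deficient 3 and 9.97 to 10.99 in the other deficient arrays, against 9.54 to 10.82 in controls. The difference of 0.42 (SE 0.29) was 0.18 without that array and 0.08 without deficient 3 and 6. Ndrg1, a stress-induced gene of differentiation, read 11.60 in deficient 3 and 8.11 to 9.23 in the other deficient arrays, against 7.23 to 10.05 in controls, and its difference of 0.29 (SE 0.52) became -0.16 without deficient 3 and -0.31 without deficient 3 and 6. The dimmer Ndrg1 probesets that were tested differed by 0.34 and 0.82, or -0.19 and 0.29 without deficient 3. Higd1a, a small mitochondrial protein gene, lay at 10.51 to 11.56 in controls, with a median of 10.98, and at 11.07 to 12.17 in deficient tumours, with a median of 11.23, with a difference of 0.35 (SE 0.20, limma adjusted p = 0.424) and only deficient 3 above every control. Without deficient 3 it was 0.22, and without deficient 3 and 6 it was 0.18. The dimmer Higd1a probesets read 8.43 and 5.03 in deficient 3, against control means of 8.42 and 4.82. They differed by 0.21 and 0.11, or 0.24 and 0.09 without deficient 3. Ddit4, an inhibitor of mTOR signalling, differed by 0.02 (SE 0.22), and the sign turned without deficient 3 (-0.07), without deficient 3 and 6 (-0.08) and with quantile normalisation (-0.0014).

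Adm, Car9 and Car12 were too dim for a test. Car9, the carbonic anhydrase of hypoxic tumours, was above 4 in 2 of 14 arrays, deficient 6 (4.71) and deficient 3 (4.16), with 2.44 to 3.06 in controls and 2.44 to 2.67 in the other deficient arrays. Adm, which encodes adrenomedullin, was above 4 in deficient 3 alone (4.54), and Car12 read 2.15 in every array. Levels this low are near the floor of the deposited values and have no reliable order.

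Enzymes that modify collagen had lower and higher means. The prolyl 4-hydroxylase genes P4ha1 and P4ha2 differed by -0.21 (SE 0.20) and -0.28 (SE 0.25), with deficient 1 lowest for P4ha1 at 7.45 and deficient 4 lowest for P4ha2 at 6.67. Without deficient 3 and 6 they differed by -0.37 and -0.49. A dimmer P4ha1 probeset had the other sign, at 0.10 (SE 0.41), and differed by -0.16 without deficient 3. The lysyl hydroxylase gene Plod1 lay at 5.88 to 8.15 in controls, with a median of 7.78, and at 6.29 to 7.37 in deficient tumours, with a median of 6.86. Its difference of -0.54 (SE 0.33, limma adjusted p = 0.457) was the lowest of the set, and every deficient array lay within the control range. Plod2 was above 4 in 1 array, control 6 at 4.03. Lox, which cross-links collagen, lay at 6.10 to 7.24 in controls, with a median of 6.56, and at 6.74 to 7.26 in deficient tumours, with a median of 7.11. All 7 deficient arrays lay above the control mean, but only 2 lay above every control, with a difference of 0.44 (SE 0.18, 1.36-fold, adjusted p = 0.272), 0.41 without deficient 3 and 0.07 in a dimmer probeset. Of 10 chains of collagen, the substrate of these enzymes, 7 had a lower mean and 0 passed the test, with a median of -0.04, or -0.08 without deficient 3 and 6, and Col6a1 and Col6a2 had the smallest p-values, at -1.07 (SE 0.36) and -1.17 (SE 0.44).

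Ero1a, an oxidase that drives disulfide formation in the endoplasmic reticulum, had the smallest p of the set. It lay at 9.27 to 9.90 in controls, with a median of 9.65, and at 9.77 to 10.90 in deficient tumours, with a median of 10.09. All 7 deficient arrays lay above the control mean, and deficient 4 and 7 (9.88 and 9.77) lay within the control range. The difference was 0.61 (SE 0.17, 1.53-fold, 95% interval 0.25 to 0.97), with an exact permutation p of 0.00175 before adjustment and a limma adjusted p of 0.141. It was 0.49 (adjusted p = 0.160) without deficient 3 and 0.42 (adjusted p = 0.212) without deficient 3 and 6, and the other Ero1a probesets differed by 0.45 and 0.78, or 0.14 and 0.48 without deficient 3. With each array left out in turn the adjusted p ran from 0.101 to 0.306. The permutation takes the 14 arrays as independent. With the leading description number as a random block in limma, the difference was 0.64 and the adjusted p was 0.989.

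Within the deficient group the arrays differed widely in these genes. Deficient 3 held the highest of the 14 values for 17 of 28 genes, where 15.3% of all tested probesets had their highest value there. It lay above every control for 21 of 28 genes (75.0%), against 24.9% of probesets. It read at least 1 log2 unit above the control mean for 14 of 28, against 5.96% of probesets, and deficient 6 did so for 3, against 3.22%. Deficient 6 lay above every control for 15 of 28 (53.6%), against 18.5%, and deficient 2 for 12 of 28 (42.9%), against 20.2%. Single controls could also stand above the rest, and control 3 lay above the 6 other controls for 9 of 28 genes (32.1%), against 13.0% of probesets. Control 4 held the lowest of the 14 values for 8 of 28 genes (28.6%), against 8.5% of probesets. For control 6 it was 7 genes (25.0%), against 12.7%, and for deficient 1 it was 7 (25.0%), against 19.2%. For the 14 genes Slc2a1, Hk1, Pfkl, Pfkp, Pfkfb3, Aldoa, Tpi1, Pgk1, Pgam1, Pkm, Ldha, Pdk1, Bnip3 and Ero1a, both deficient 3 and deficient 6 were above every control, against 10.3% of probesets.

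Counts were lower in the other deficient arrays. Deficient 1, 4, 5 and 7 lay above every control for 3, 6, 3 and 4 of the 28 genes, or 10.7%, 21.4%, 10.7% and 14.3%, against 22.7%, 17.3%, 16.5% and 19.3% of probesets. Deficient 1 lay below every control for 7 of 28 genes, or 25.0%, against 24.8%. The same count was 2 in deficient 2 (16.3% of probesets), 1 in deficient 3 (21.4%), 3 in deficient 4 (11.3%), 1 in deficient 5 (16.5%), 0 in deficient 6 (15.6%) and 0 in deficient 7 (17.4%). The median of the 28 genes relative to the control mean was 0.92 in deficient 3, 0.53 in deficient 6, 0.25 in deficient 2 and deficient 4, 0.02 in deficient 7, -0.02 in deficient 5 and -0.13 in deficient 1. Single controls ranged from -0.23 in control 6 to 0.17 in control 3, and all tested probesets stayed between -0.03 and 0.05 in every array. These counts were chosen after the arrays were seen and describe these arrays.

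**Figure D3:**
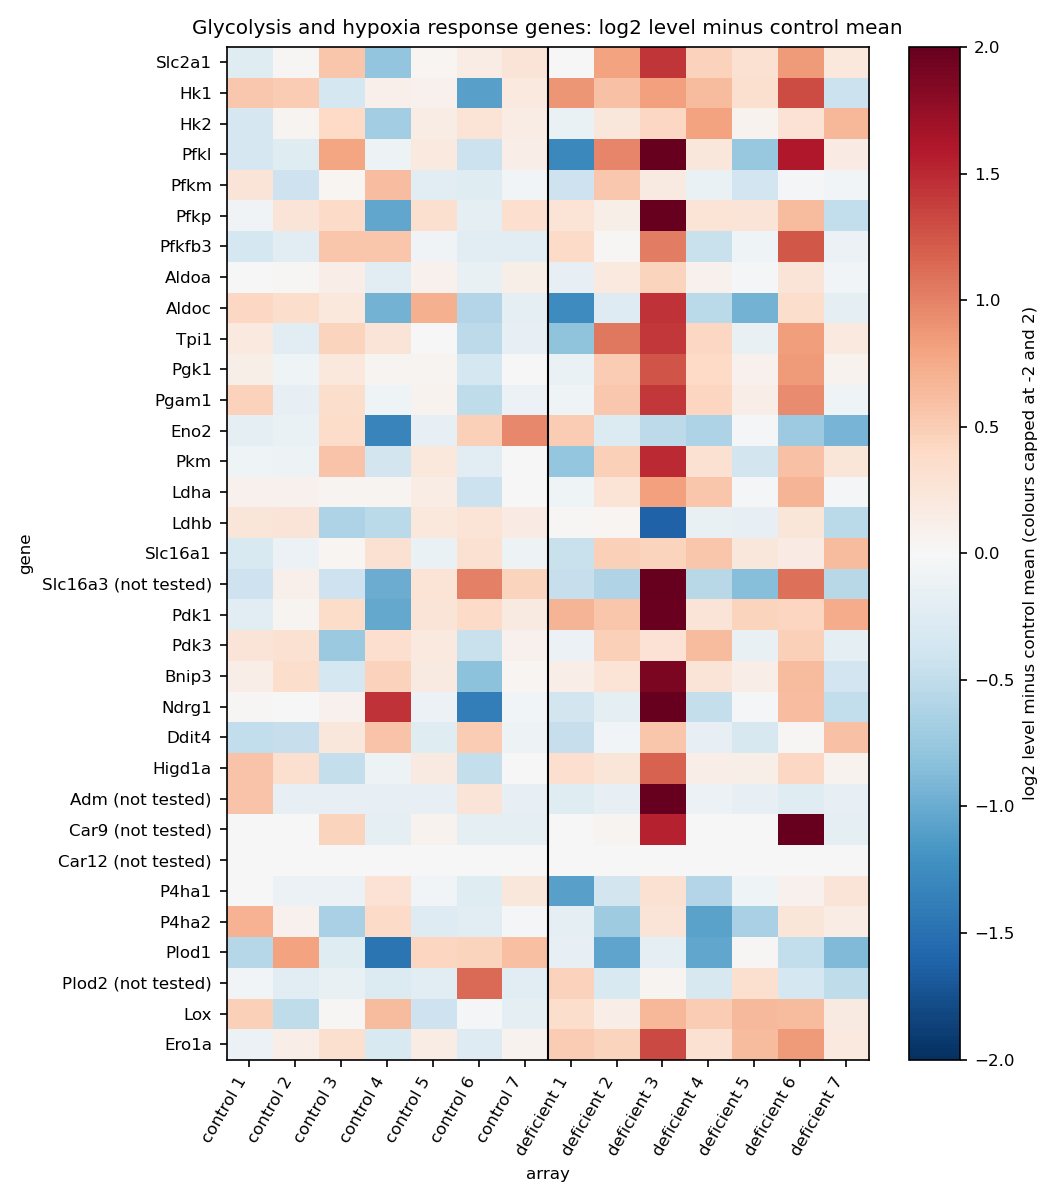
Log2 level minus the control mean for the 33 measured genes (rows) in the 14 arrays (columns, controls left of the line), coloured from blue (lower) to red (higher) and capped at -2 and 2. Red runs down the columns of deficient 3 and, more faintly, deficient 6, with Ldhb blue in deficient 3, and genes marked "not tested" lie near background in most arrays.

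**Figure D4:**
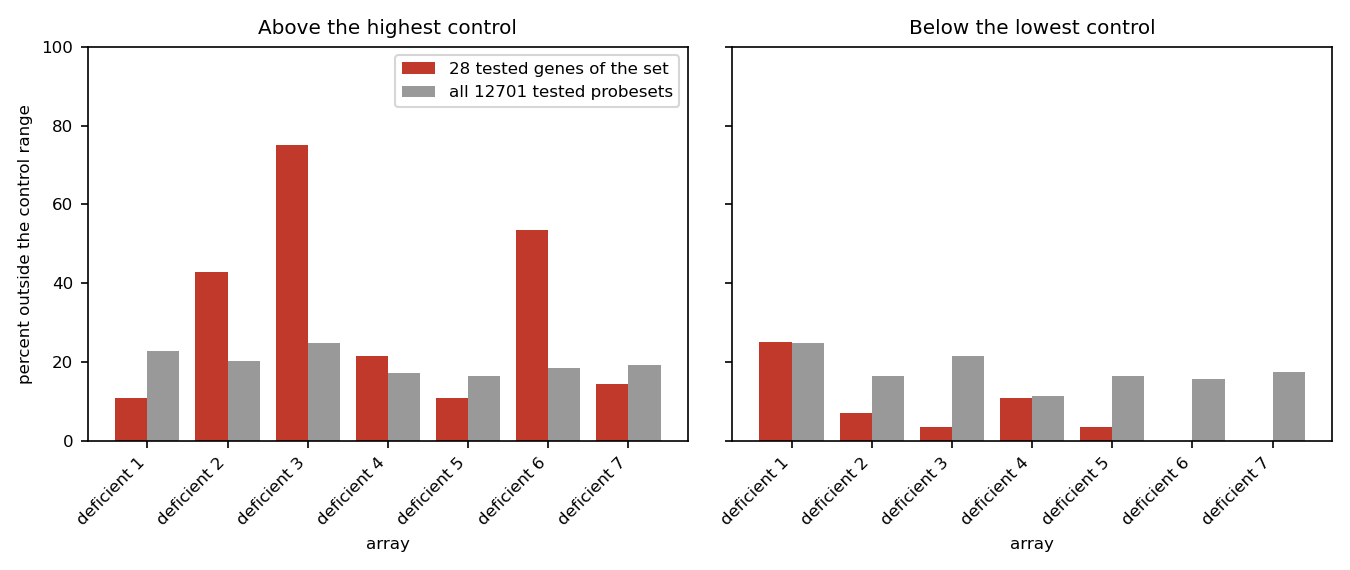
Percent of the 28 tested genes (red bars) and of all 12701 tested probesets (grey bars) that lie above the highest control (left panel) or below the lowest control (right panel) in each deficient array. Red exceeds grey on the left most in deficient 3 (75.0% against 24.9%) and deficient 6 (53.6% against 18.5%), and on the right deficient 1 stands at 25.0% against 24.8%.

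The same arrays differed in markers of other cell types, whose part in these results was not tested, and for some lists other deficient arrays also lay below the controls. The mean level of 8 endothelial genes was 5.55 in deficient 3 and 5.83 in deficient 6, against 7.45 to 8.50 in controls and no less than 7.28 in the other deficient arrays. For 5 alveolar type I genes it was 9.34 and 9.63, against 10.59 to 11.19 in controls. For 4 genes of ciliated cells it was 3.47 and 3.42, against 5.81 to 9.60 in controls and a lowest value of 4.40 in the other deficient arrays, and all 3 of these that were tested had a lower mean in deficient tumours (0 called, with 3 at an unadjusted p under 0.05 in limma), at -2.32 for Tppp3 (SE 0.57), -2.70 for Rsph1 (SE 0.80) and -3.49 for Lrrc23 (SE 0.99). Foxj1, the defining regulator of ciliated cells, was too dim for a test. It read 2.18 in deficient 3 and 2.25 in deficient 6. All deficient arrays lay at 2.18 to 3.57, near the floor, against 2.69 to 6.75 in controls. The 5 alveolar type II genes read 13.47 and 13.68 against 13.51 to 13.71. In bulk tumour RNA, fewer cells of a type and less RNA per cell cannot be told apart.

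Among the other lists, the 5 fibroblast genes averaged 9.13 in deficient 3 and 9.78 in deficient 6, against 9.55 to 10.64 in controls and a lowest value of 9.46 in the other deficient arrays. The 6 macrophage genes averaged 7.81 and 8.69, against 8.03 to 9.87 and a lowest value of 7.86. The 5 proliferation genes averaged 7.39 and 6.31, against 6.78 to 7.69, so that these arrays lay within and below the control range. The 5 club cell genes averaged 10.90 and 11.56, against 11.92 to 13.21 and a lowest value of 11.25 in the other deficient arrays. The 5 neutrophil genes averaged 5.83 and 6.37, against 5.30 to 8.48, and the 5 T and B cell genes averaged 6.10 and 4.70, against 5.06 to 6.53. All 3 measured red cell genes stayed under 4 in every array, and so did Acta1 and Ckm of the muscle list.

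Genes of these pathways outside the set came next. Of 25 other glycolysis genes 9 were tested, with 5 higher, 4 lower, 0 called and a median difference of 0.04, or -0.10 without deficient 3 and 6. Pgm1, which links glycogen to glycolysis, differed by 0.47 (SE 0.17, limma adjusted p = 0.224), and Slc16a7, the monocarboxylate transporter MCT2, by -0.94 (SE 0.35, adjusted p = 0.238). Of 40 other hypoxia response genes 31 were tested, with 21 higher, 10 lower, 0 called and a median of 0.17, or 0.12 without deficient 3 and 0.10 without deficient 3 and 6. Wsb1, a ubiquitin ligase adaptor gene, differed by 0.43 (SE 0.12, adjusted p = 0.159), and Angptl4, an inhibitor of lipoprotein lipase, averaged 7.05 in controls and 6.05 in deficient tumours (SE of the difference 0.32, adjusted p = 0.191). Deficient 3 lay above every control for 11 of these 31, against 24.9% of all tested probesets. For the other glycolysis genes it did so for only 1 of 9. Picked as examples for their height in that array, the adenylate kinase gene Ak4 read 9.31 (controls 3.02 to 6.59) and Fam162a read 12.22 (controls 10.07 to 11.60). The oxygen sensor gene Egln3, too dim for a test and, like Ak4 and Fam162a, chosen after its values were seen, read 6.79 in deficient 3 and 4.57 in deficient 6, against 2.13 to 3.18 in controls.

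Genes of pyruvate oxidation and the citric acid cycle gave 14 higher and 8 lower means among 22 tested. Of these 0 were called, and the median was 0.08. Deficient 3 lay above every control for 6 of the 22, against 24.9% of all tested probesets. The list also holds Pdk2 and Pdk4, relatives of Pdk1, which inactivates pyruvate dehydrogenase. Ogdh, a subunit gene of the oxoglutarate dehydrogenase of the citric acid cycle, differed by -0.42 (SE 0.14, limma adjusted p = 0.194). Pdk4, a relative of Pdk1 induced by fasting, differed by -1.13 (SE 0.49, adjusted p = 0.314) and was lowest in deficient 3 (7.32) against 9.54 to 11.71 in controls, while Pdk1 was highest in that array. Without deficient 3 the difference of Pdk4 was -0.79, and without deficient 3 and 6 it was -0.47.

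Of the HIF genes, Epas1, the targeted gene, read 5.17 in deficient 3 and 5.55 in deficient 6, within its control range of 4.65 to 6.50, and differed by -0.19 (SE 0.30, limma adjusted p = 0.807), or -0.11 without deficient 3 and -0.08 without deficient 3 and 6. The sources used here do not say whether its probeset lies in the deleted part of the gene, so it checks nothing. Hif1a, which encodes HIF-1α, a protein controlled mainly by its stability, read 11.10 in deficient 3 and 11.20 in deficient 6, against 10.74 to 11.19 in controls. Its difference between the groups was 0.32 (SE 0.11, adjusted p = 0.219), with the highest value in deficient 5.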

How the data were processed

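Total RNA from tumours of 7 control and 7 deficient mice was hybridised to Affymetrix arrays, per the labels. The deposited values are log2 expression values, 1 per probeset and array, which the authors computed by GCRMA according to the notes on processing that the submitters gave. Its version was not given in the sources used here. GCRMA corrects background by probe sequence, which compresses dim probesets toward a floor. Arrays have no read depth, and their number limits the precision.

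From these values, 64 Affymetrix control probesets were set aside and probesets above 4 in at least 7 of 14 arrays were kept (12701 kept, 9925 left out). The groups were tested in limma (version 3.58.1, R version 4.3.3; lmFit, eBayes), with Benjamini-Hochberg adjustment over all kept probesets and a threshold of 0.05. Exact permutation tests used all 3432 splits, two-sided. Each gene was read by its brightest probeset with a single symbol. The fit was tested on simulated data. The 12 tested genes with the smallest p were given in full, dim genes as levels and the rest by difference and SE; from each other list the 2 genes with the smallest p could be named, and Epas1 and Hif1a always. Others were chosen after their values were seen, as were the counts of genes outside the control range in each array. The members and lists were chosen with earlier results of these data known. The alternatives were filters, normalisation, array weights, blocks, an RNA quality covariate and arrays left out.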

Additional observations from a re-analysis of the deposited data

Results flagged for a closer look

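In each group of 7 arrays the highest and lowest value of the 33 measured genes was compared with its nearest neighbour, and 12 of 66 groups held an array far from the others. Chance gives about 1 in 20, but these arrays exceed that over all genes: among the 28 tested genes it was 9 of 56 groups (16.1%), against 11.0% of the groups over all tested probesets. Deficient 3 was the array far from its group for 5 of the 28 tested genes (17.9%), against 2.01% of all tested probesets. It was high for Pfkp (11.07, nearest 9.36), Pdk1 (10.08, nearest 8.85), Ndrg1 (11.60, nearest 9.23) and Higd1a (12.17, nearest 11.40), and low for Ldhb (10.18, nearest 11.26). The dimmer Higd1a probesets read 8.43 and 5.03 in deficient 3, against control means of 8.42 and 4.82. Control 4 was low for Pfkp (7.68, nearest 8.54) and Pdk1 (7.08, nearest 7.89), and control 6 was low for Ldha (12.18, nearest 12.60). Deficient 1 was low for Slc16a1 (9.29, nearest 9.90). Among genes too dim for a test, where most values lie at the floor, deficient 3 was high for Adm (4.54, nearest 2.32), control 6 for Plod2 (4.03, nearest 2.85) and control 3 for Car9 (3.06, nearest 2.69).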

How the results depend on the processing

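Of 671 values of the tested genes under 24 alternatives, 646 kept their direction and side of the threshold, 18 turned sign in 6 genes and 7 crossed the threshold. All 7 crossings came with array weights. Limma then called 7 genes of the set (25.0%) and 12 of the 75 tested genes of the other pathway lists, against 15.0% of all probesets. Those lists had 1 call without deficient 3 and 6, against 0.252% of all probesets, and 0 to 1 with each array left out. The turned signs were Pfkm (0.01 with quantile normalisation, 0.20 with array weights), Ddit4 (-0.0014 with quantile normalisation, -0.06 with the RNA quality covariate) and, without deficient 3 and 6, Pfkl (-0.14), Pfkfb3 (-0.05), Pkm (-0.03), Ndrg1 (-0.31) and Ddit4 (-0.08), and the cause was not tested. With each array left out in turn, the median difference of the set ran from 0.18 to 0.41, the number above 0 from 19 to 22, calls in the set from 0 to 0, Epas1 from -0.39 to -0.06 and the RNA quality difference from -0.13 to 0.04. Ddit4 then ran from -0.07 to 0.12, Ndrg1 from -0.16 to 0.53 and Pfkm from -0.14 to 0.06. Calls among all probesets ran from 0 to 85 (without control 4), with 30 without deficient 6, 13 without deficient 7 and 11 without deficient 1. They were 0 with no filter, 7 with a filter at 6, 9 with a trended and robust fit, and 0 with the leading description number as a random block, where 3 genes of the set had an unadjusted p under 0.05. Replicate numbers did not pair the arrays: correlations of same-numbered arrays ran from -0.23 to 0.22, with 2 of 7 above 0.1. With a replicate block there were 2 calls overall and 0 in the set, a median of 0.30, 21 genes above 0 and -0.19 for Epas1.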
